A study of Homo sapiens with 8 samples.

Results

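The genes of the plasminogen activator and matrix metalloproteinase system described here were 9 of the 19970 protein-coding genes in the RefSeq table: PLAU, PLAUR, SERPINE2, MMP1, MMP2, MMP9, MMP14, TIMP1 and TIMP3. Their H3K27ac peaks were every peak that overlapped the RefSeq gene span on hg38 or the 50 kb on either side of it, and the 9 genes lie on 9 different chromosomes. The rule gave 57 of 42552 peaks in ARID1A knockout cells and 48 of 39797 peaks in control cells. A peak was shared where it overlapped a peak of the other list by at least 1 bp, and was otherwise knockout-only or control-only.

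Plasmin and the matrix metalloproteinases are the main proteases with which cells cut the matrix around them. Urokinase (PLAU), held at the cell surface by its receptor (PLAUR), turns plasminogen into plasmin, and serpins such as SERPINE2 block it. The metalloproteinases (MMPs) are secreted or membrane-bound zinc enzymes that cut collagens and gelatin, several of them from precursors that plasmin or another MMP activates, and the tissue inhibitors of metalloproteinases (TIMPs) block them. MDA-MB-231 is an established, invasive triple-negative breast cancer line in which this system has been studied for its part in invasion. Acetylation of lysine 27 of histone H3 (H3K27ac) marks active promoters and enhancers.

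The cells compared were MDA-MB-231 with ARID1A knocked out and MDA-MB-231 as control, with 2 immunoprecipitated and 2 input libraries each and no treatment given in the labels. ARID1A is a subunit of the SWI/SNF chromatin remodelling complex. The sources used here do not say whether the knockout was 1 clone or a pool, or whether replicates were separate cultures. Each genotype had 1 peak list, so every value is 1 value per genotype without replicate error, no test of the genotype was possible, and fewer cells carrying the mark cannot be told apart from less mark per cell. The characteristics name an antibody to H3K27ac, whereas the protocol text names one to H3K4me3, and the mark is called H3K27ac here after the titles and characteristics.

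Pileup, the authors' fragment coverage of a peak, had a median of 32.0 in the knockout list and 22.7 in the control list. Its scaling is not given in the sources used here, so pileups are described within a list, also as a percentile of that list, and are not compared between lists. A peak lay over the ARID1A promoter in both lists, which does not check the knockout. Of 8 markers of MDA-MB-231, the 5 with a promoter entry (VIM, AXL, CD44, CAV1 and MSN) had a promoter peak in both lists. Of 6 luminal markers 5 had an entry: FOXA1 and GATA3 had a promoter peak in both lists, ESR1 in the knockout list alone, and PGR and SPDEF in neither. With an entry for 2 of 4 genes each, the fibroblast gene PDGFRB had a peak in both lists, and DPT and the blood cell genes PTPRC and CD79A had none.

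Most acetylated sites of these genes were common to both genotypes. In the knockout list 44 peaks were shared and 13 were knockout-only (22.8%, exact 95% binomial interval 12.7 to 35.8), against 22.4% of all knockout peaks. In the control list 44 peaks were shared and 4 were control-only (8.33%, interval 2.32 to 20.0), against 18.0% of all control peaks. The knockout-only share was thus close to that of the whole list, and the interval of the control-only share includes the value of the whole list. These intervals cover counting error only, and neighbouring peaks are not independent.

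**Figure D1:**
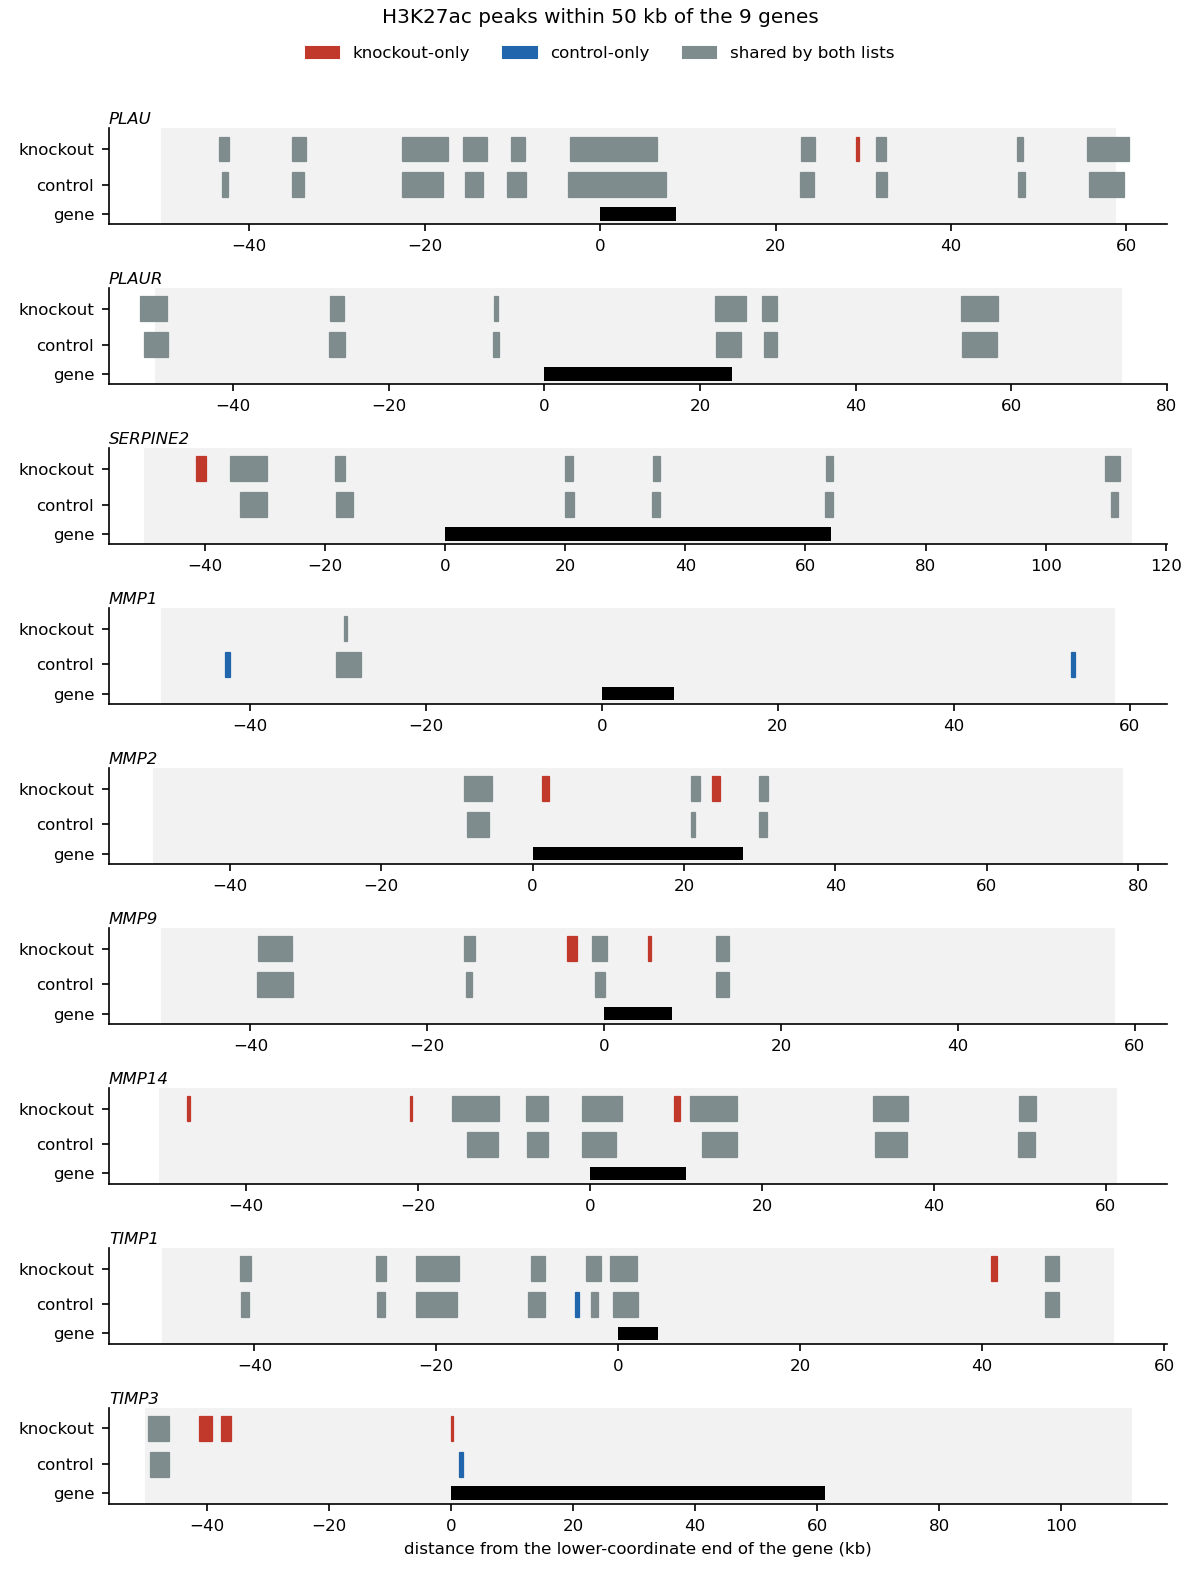
Peaks near each of the 9 genes, with ARID1A knockout above control, drawn by distance in kb from the lower-coordinate end of the gene; the black bar is the gene and the grey shade is the window of 50 kb on either side. Shared peaks (44 in each list) line up between the lists, 13 peaks are knockout-only and 4 are control-only, and MMP1 has no peak over its span in either list.

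Among the shared sites, each knockout peak matched exactly 1 control peak. Of these 44 pairs, 35 (79.5%) had lengths within 1.5-fold of each other, against 71.5% of 30509 such pairs in the whole genome. In the pair with the least overlap 83.5% of the shorter peak was covered. The knockout peak was the longer one in 29 pairs and the control peak in 15, whereas over all 30509 pairs the knockout peak was longer in 51.1%. The median log2 length ratio, knockout over control, was 0.12 for the 44 pairs and 0.01 for all pairs. The genotype-only peaks were short and low. Median length was 724 bp for the 13 knockout-only peaks and 1716 bp for the shared knockout peaks, and it was 532 bp for the 4 control-only peaks and 2043 bp for the shared control peaks. Over the whole lists it was 765 bp for knockout-only and 1826 bp for shared knockout peaks, and 673 bp for control-only and 1776 bp for shared control peaks. Of the 13 knockout-only peaks, 12 lay below the median pileup of their list, and all 4 control-only peaks lay below that of theirs. Genotype-only peaks of the whole lists were likewise low: the median pileup percentile was 18.1 for the 13 knockout-only peaks and 19.4 for all knockout-only peaks, and it was 16.6 for the 4 control-only peaks and 15.5 for all control-only peaks.

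Summed over the 9 windows, peaks covered 129 kb in the knockout list and 111 kb in the control list. The summed length was greater in the knockout list for 8 of the 9 genes, MMP1 being the exception; the background was 40.7% of the 17126 protein-coding genes with peaks in both lists. The median log2 ratio of summed length, knockout over control, was 0.29 over the members and -0.09 over those genes. This count depended on the window: with 25 kb on either side the knockout list had more in 5 genes and the control list in 3 (PLAU, SERPINE2 and TIMP3), and MMP1 had no peak. With 100 kb on either side the knockout list had more in 7 genes and the control list in 2. A knockout-only peak lay in the window of 7 members (all but PLAUR and MMP1), against 43.2% of those 17126 genes, and a control-only peak in that of 3 members (MMP1, TIMP1 and TIMP3), against 47.3%. The members' windows held 1 to 11 knockout peaks, and the median of those genes was 4; the part of peak number in these counts was not tested.

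**Figure D2:**
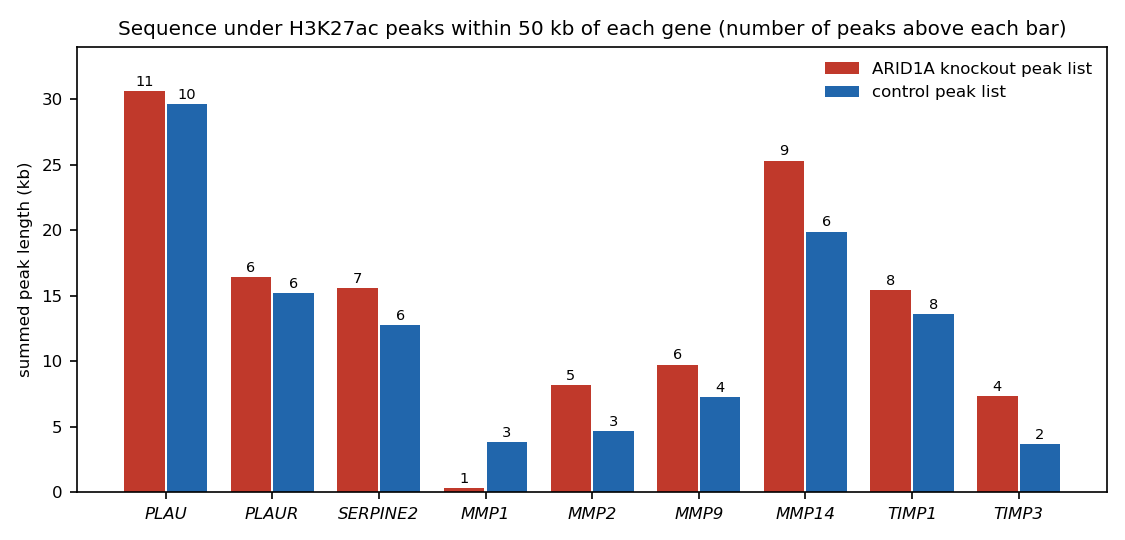
Summed length in kb of the H3K27ac peaks within 50 kb of each gene, with the ARID1A knockout bar left of the control bar, 1 list per genotype and the number of peaks above each bar. PLAU has the most acetylated sequence in both lists (30.6 kb in knockout and 29.6 kb in control) and MMP1 the least in the knockout list (0.343 kb, against 3.83 kb in control).

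The promoters of the activator, its receptor, the serpin, the membrane-bound MMP and TIMP1 were acetylated in both genotypes. RefSeq promoter entries (250 bases before to 50 after a start) were matched for 6 members: PLAU and SERPINE2 with 2 starts each, and PLAUR, MMP14, TIMP1 and TIMP3 with 1 each. A peak lay over a promoter in both lists for 5 of these 6 genes, against 62.0% of 15811 protein-coding genes. TIMP3 was the exception, with a promoter peak in the knockout list alone, as in 1.31% of those genes. No promoter entry was matched for MMP1, MMP2 and MMP9, for which peaks are placed against the ends of the gene span.

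The promoters shown are those of PLAU, PLAUR and MMP14, the 3 members with the highest promoter peaks by pileup in each list, and of TIMP3, whose promoter had a peak in the knockout list alone. Each is the 250 bases before the start, 5′ to 3′ along the gene, taken from RefSeq (GRCh38.p14, which is hg38). Capitals mark matches, on either strand, of the 7 motifs searched in the 300 bases of the promoter entry, and the printed matches do not overlap each other. For PLAU the start at 73911132 is shown.
PLAU (chr10:73910882-73911131, plus strand): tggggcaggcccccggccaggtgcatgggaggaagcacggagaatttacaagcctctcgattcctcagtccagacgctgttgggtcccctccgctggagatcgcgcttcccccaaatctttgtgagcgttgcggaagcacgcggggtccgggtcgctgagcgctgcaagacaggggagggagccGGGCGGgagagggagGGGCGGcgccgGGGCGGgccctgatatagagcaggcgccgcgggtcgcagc
PLAUR (chr19:43670170-43670419, minus strand): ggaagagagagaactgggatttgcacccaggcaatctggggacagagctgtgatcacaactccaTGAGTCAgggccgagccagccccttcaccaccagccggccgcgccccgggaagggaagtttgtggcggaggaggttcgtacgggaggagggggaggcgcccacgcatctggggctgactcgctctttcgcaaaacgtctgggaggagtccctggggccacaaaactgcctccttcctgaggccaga
MMP14 (chr14:22836335-22836584, plus strand): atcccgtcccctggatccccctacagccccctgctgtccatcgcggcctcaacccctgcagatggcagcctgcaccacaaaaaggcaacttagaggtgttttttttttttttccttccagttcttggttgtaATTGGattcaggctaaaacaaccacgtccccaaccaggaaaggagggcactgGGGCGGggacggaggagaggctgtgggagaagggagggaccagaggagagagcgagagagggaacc
TIMP3 (chr22:32801455-32801704, plus strand): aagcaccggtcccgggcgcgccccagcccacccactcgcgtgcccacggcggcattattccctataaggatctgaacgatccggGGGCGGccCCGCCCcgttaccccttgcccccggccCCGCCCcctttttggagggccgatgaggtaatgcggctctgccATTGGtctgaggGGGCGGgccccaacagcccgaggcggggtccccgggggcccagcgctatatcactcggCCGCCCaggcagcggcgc

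GC boxes, searched as GGGCGG, were the most frequent match: the shown promoter of PLAU had 3 and that of TIMP3 had 5, and 6 of the members' 8 promoters held at least 1, as did 45.0% of 34961 RefSeq promoters. A CCAAT match occurred in 4 of the 8, against 34.6% of all. The AP-1 letters TGANTCA occurred in PLAUR alone, with the first base at -186 from the start, and in 7.68% of all promoters. No member promoter held the CRE-like letters TGACGTCA, found in 1.85% of all. Nor did any hold the ETS letters CGGAAGT, found in 6.82%, or the TATA letters TATAAA, found in 11.5%. The E-box letters CACGTG were in 1 member promoter, at the start of SERPINE2 without a peak, and in 7.27% of all. GC content over the 300 bases was 72.7% for TIMP3, 70.0% for PLAU, 64.0% for PLAUR and 55.0% for MMP14, with a median of 58.7% over all promoters. The TIMP3 promoter had the highest GC content of the 4 shown. The SERPINE2 promoter with a peak in both lists, not shown, had 73.7%.

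PLAU (chromosome 10, 73908832 to 73917494), the urokinase gene, lay under the longest single peak near the 9 genes in each list. Its start was covered by a peak of 9.97 kb in knockout cells (73905359 to 73915331, pileup 117, percentile 92.0) and of 11.1 kb in control cells (73905213 to 73916319, pileup 104, percentile 98.4). That knockout peak ended 2.16 kb, and the control peak 1.17 kb, short of the higher-coordinate end of the gene. A chain of 3 further peaks lay on the lower-coordinate side between PLAU and CAMK2G, a calcium-dependent kinase gene. The outermost of the 3 measured 5.18 kb in knockout cells (73886296 to 73891479, pileup 81.9, percentile 81.9) and 4.60 kb in control cells (73886282 to 73890880, pileup 106, percentile 98.4). By pileup it was the highest PLAU peak of the control list, whereas in the knockout list the start peak was the highest. On the other side a peak 46.8 kb from the gene in the knockout list measured 4.79 kb (73964310 to 73969095, pileup 112), with a control partner of 4.06 kb (pileup 90.5). All 10 control peaks were shared, as were 10 of 11 knockout peaks. The 1 knockout-only peak, 331 bp at 73937987 to 73938317, was low (pileup 13.4, percentile 11.5, −log10 q 2.63).

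PLAUR (chromosome 19, 43646095 to 43670169), the urokinase receptor gene, had 6 peaks in each list and all were shared. Over its start lay a peak of 4.01 kb in knockout cells (43667968 to 43671975, pileup 134, percentile 94.9) and of 3.25 kb in control cells (43668090 to 43671340, pileup 86.9, percentile 96.1). Another lay 3.93 kb beyond the start in the knockout list (43674103 to 43676047, pileup 125), with a control partner of pileup 59.3, both touching the span of LOC124904724. Another, 29.5 kb beyond the start, measured 4.78 kb in knockout cells (pileup 113) and 4.45 kb in control cells (pileup 64.6). The remaining 3 lay over promoters of neighbouring genes, namely IRGQ and ZNF576, ZNF428, and CADM4, a cell adhesion gene. The ZNF428 peak had the highest pileup of the control window (89.8), and the start peak that of the knockout window. The CADM4 peak was the lowest in each list (percentile 28.1 in knockout and 35.6 in control).

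SERPINE2 (chromosome 2, 223975045 to 224039286), which encodes protease nexin-1, an inhibitor of urokinase, plasmin and thrombin, was acetylated more narrowly at its start. The peak there measured 1195 bp in knockout cells (224038440 to 224039634, pileup 52.0, percentile 66.9) and 1327 bp in control cells (224038294 to 224039620, pileup 35.4, percentile 67.4). The second RefSeq start of the gene, at 224031478, had no peak in either list. Inside the gene were 2 shared sites. The one at 223995026 to 223996378 in the knockout list had a pileup of 23.2 (percentile 36.5), and its control partner 30.9 (percentile 62.2). The other, at 224009722 to 224010744, had 23.6 (percentile 37.2) in the knockout list and 9.60 (percentile 9.32) in the control list. The longest and highest peak of the window in each list lay over the promoter of the neighbour WDFY1 (223939267 to 223945371, 6.11 kb, pileup 83.2 in knockout; 223940815 to 223945374, 4.56 kb, pileup 51.3 in control). Beyond the start, a site between genes measured 2.57 kb in knockout (224084891 to 224087462, pileup 26.9) and 1.15 kb in control (224085999 to 224087147, pileup 13.5), a ratio of 2.24. At the promoter of MRPL44, a mitochondrial ribosome gene, the control peak was the longer one, with 1.66 kb in knockout and 2.91 kb in control. The 1 knockout-only peak lay in WDFY1 (223933524 to 223935224, 1701 bp, pileup 15.7, −log10 q 4.40).

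MMP1 (chromosome 11, 102789919 to 102798160), which encodes interstitial collagenase, had the least peak length of the 9 in the knockout list, and was the one member with more peak length in the control list. No peak of either list touched the gene, and the nearest lay 28.9 kb away in the knockout list and 27.4 kb away in the control list. That site measured 343 bp in knockout cells (102760647 to 102760989, pileup 19.7, percentile 29.2) and 2.80 kb in control cells (102759727 to 102762530, pileup 22.6, percentile 49.8). Among the 44 pairs it had the largest length ratio, the control peak being 8.17 times as long, whereas the largest ratio in the other direction was 2.24, at SERPINE2. The control list had 2 more peaks, both control-only. One of 619 bp lay between genes (102747098 to 102747716, pileup 16.0, −log10 q 9.08), and the nearest knockout peak was 12.9 kb away. Another of 411 bp (102843271 to 102843681, pileup 13.0, −log10 q 3.51) spanned the higher-coordinate end of MMP3, the stromelysin-1 gene, with no knockout peak within 82.3 kb. All 3 sites lay closer to another MMP gene (MMP8, MMP10 and MMP3) than to MMP1. The log2 ratio of summed length was -3.48, knockout over control, at percentile 0.056 of protein-coding genes with peaks in both lists, and it rests on 1 knockout and 3 control peaks.

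MMP2 (chromosome 16, 55478830 to 55506691), the gelatinase A gene, had no peak over either end in either list, and had knockout-only peaks inside it. The longest peak of the window in each list lay between genes on the lower-coordinate side, which is the 5′ side of MMP2 from general knowledge. This peak measured 3.75 kb in knockout cells (55469738 to 55473487, pileup 71.7, percentile 77.6) and 3.02 kb in control cells (55470090 to 55473108, pileup 31.0, percentile 62.3), and lay 5.34 kb from the gene in the knockout list and 5.72 kb in the control list. The gene body had 3 peaks in the knockout list and 1 in the control list. A knockout-only peak of 887 bp began 1.26 kb inside the lower-coordinate end (55480086 to 55480972, pileup 17.8, percentile 24.2), and the nearest control peak was 6.98 kb away. A second knockout-only peak of 1.09 kb (55502547 to 55503638, pileup 30.2, percentile 47.7, −log10 q 10.4) had a control peak 2198 bp away. That control peak was the shared site at 55499733 to 55500348 (616 bp, pileup 15.2, percentile 31.4), whose knockout partner measured 1.25 kb (pileup 28.9, percentile 46.0). The last shared peak lay in LPCAT2, an acyltransferase gene, beyond the other end of MMP2, with a pileup of 41.4 in the knockout list and 32.8 in the control list, where it was the highest of the window. Peak length within the window totalled 8.17 kb in knockout and 4.66 kb in control.

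MMP9 (chromosome 20, 46008908 to 46016561), the gelatinase B gene, had a moderate peak over its lower-coordinate end, the 5′ end from general knowledge, in both lists. This peak measured 1676 bp in knockout cells (46007548 to 46009223, pileup 55.0, percentile 68.8) and 1099 bp in control cells (46007865 to 46008963, pileup 25.5, percentile 54.7). On its outer side, 3.03 kb from the gene, lay the highest knockout-only peak of all 9 genes, 1.20 kb at 46004677 to 46005875 with a pileup of 50.3 (percentile 65.8) and a −log10 q of 23.8. The nearest control peak, the one over the gene's end, was 1.99 kb away. Of the 13 knockout-only peaks, this one beside MMP9 alone lay above the median pileup of the list. By fold enrichment it lay below the median of the list, at percentile 45.7. Among the 13, only the TIMP3 peak at 32760387 to 32762528 lay above the median fold, at percentile 57.5 (fold 6.41). A second knockout-only peak inside MMP9 was short and low (46013894 to 46014241, 348 bp, pileup 22.5, −log10 q 5.62). The highest peak of the window, and of all 9 windows, lay over the promoter of ZNF335, a zinc finger gene, with a pileup of 211 (percentile 99.5) in knockout and 119 (percentile 99.1) in control. It lay 35.3 kb from MMP9 in the knockout list, and its lengths were 3.89 kb in knockout and 4.07 kb in control.

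MMP14 (chromosome 14, 22836585 to 22847758) encodes the membrane-bound metalloproteinase that activates the MMP2 precursor, and within 50 kb it had the most summed peak length after PLAU in each list. The peak over its start measured 4.59 kb in knockout cells (22835665 to 22840251, pileup 137, percentile 95.3) and 3.99 kb in control cells (22835594 to 22839584, pileup 79.0, percentile 94.5). A wide peak beyond the other end of the gene measured 5.43 kb in knockout (22848230 to 22853660, pileup 72.6) and 3.98 kb in control (22849668 to 22853650, pileup 54.2), with both lists sharing its outer edge to within 10 bp. The highest peak of the window by pileup, in each list just above the start peak, lay over the promoter of LRP10 (138 in knockout, 79.5 in control). On the 5′ side the peak nearest the gene lay over the promoter of MRPL52, and a further one between genes measured 5.52 kb in knockout and 3.61 kb in control. All 6 control peaks were shared. The 3 knockout-only peaks were the weakest of the knockout list in this window, with pileups from 9.66 to 16.1 and −log10 q from 2.38 to 4.32. One of them, of 602 bp, lay inside MMP14 (22846406 to 22847007). The other two, of 417 bp (22789645 to 22790061) and 265 bp (22815621 to 22815885, over the promoter), lay in SLC7A7, an amino acid transporter gene.

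TIMP1 and TIMP3 each lie within the span of a synapsin gene, SYN1 and SYN3, and differed in how their starts were acetylated. TIMP1 (chromosome X, 47582436 to 47586789), a secreted MMP inhibitor gene, had a start peak of 2996 bp in knockout cells (47581503 to 47584498, pileup 53.0, percentile 67.5) and of 2800 bp in control cells (47581816 to 47584615, pileup 28.4, percentile 58.9). Those were the highest pileups of its window in each list. A peak in SYN1 1.95 kb before the start measured 1.58 kb in knockout (47578913 to 47580488) and 757 bp in control (47579430 to 47580186), and beside it lay a control-only peak of 445 bp (47577715 to 47578159, pileup 6.66, percentile 0.65, −log10 q 1.49) that was 753 bp from that knockout peak. A knockout-only peak of 724 bp lay in CFP, the properdin gene (47623381 to 47624104, pileup 11.9). The longest peak of the window lay over the promoter of ARAF, a kinase gene, and measured 4.76 kb in knockout and 4.52 kb in control.

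TIMP3 (chromosome 22, 32801705 to 32863041), whose product binds the matrix and also inhibits ADAM17, had 4 peaks in the knockout list and 2 in the control list, and 1 in each was shared. At the gene's start the lists differed in position: the knockout list had a peak of 374 bp over the start (32801685 to 32802058, pileup 10.2, percentile 3.16, −log10 q 2.88), and the control list had a peak of 633 bp that began 1.29 kb inside the gene (32802994 to 32803626, pileup 9.63, percentile 9.47, −log10 q 2.34). The 2 peaks were 935 bp apart, and both lay below percentile 10 of their lists. Counting a peak of the other list within 1 kb as an overlap made both of them shared. The stronger knockout-only peaks of TIMP3 lay 39.2 and 36.1 kb before the gene within SYN3: one of 2.14 kb (32760387 to 32762528, pileup 26.6, percentile 42.5, −log10 q 15.0) and one of 1.51 kb (32764143 to 32765650, pileup 14.8, percentile 15.6, −log10 q 6.36). The nearest control peak to both was the shared one at 32752490 to 32755553 (3.06 kb, pileup 28.5, percentile 59.1), whose knockout partner measured 3.35 kb (32752121 to 32755472, pileup 36.7, percentile 55.0). It lay 4.83 kb from the first and 8.59 kb from the second. Apart from these, the 61.3 kb gene had no peak in its body in either list.

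**Figure D3:**
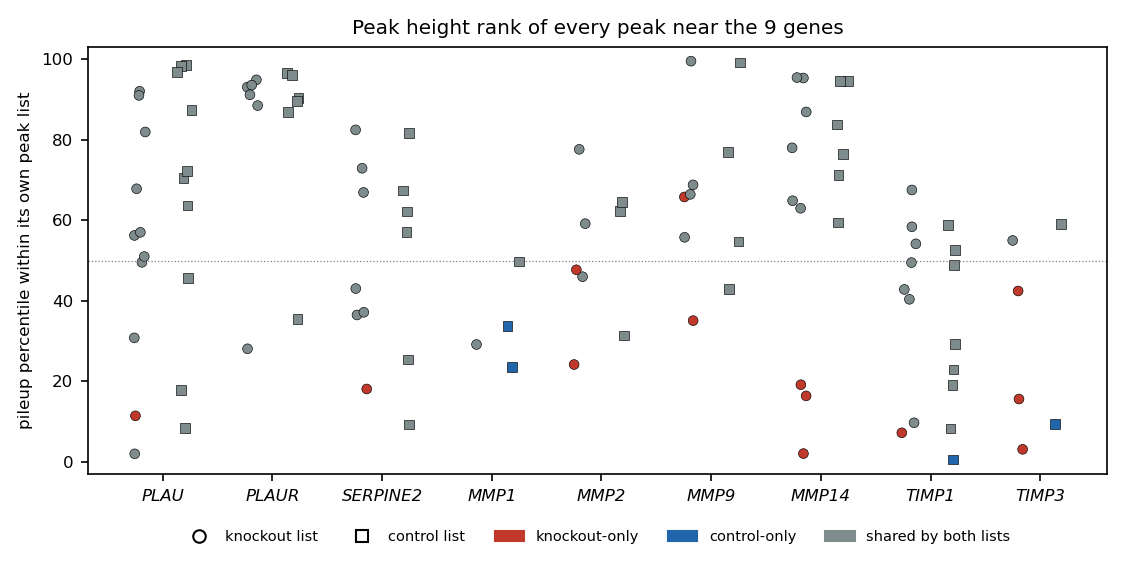
Pileup of each peak near the 9 genes as a percentile of its own list (0 is the lowest, 100 the highest), with circles for the ARID1A knockout list left of squares for the control list, 1 point per peak. Knockout-only peaks lie below percentile 50 except the one beside MMP9 at 65.8, and the 4 control-only peaks lie between 0.65 and 33.9.

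Over all 9 genes, most peaks lay outside the members, between genes or at their neighbours. Of the 57 knockout peaks 6 lay over a listed promoter of the member and 13 over that of another protein-coding gene. A further 8 lay inside the member but over no listed promoter, 11 inside another protein-coding gene and 19 between protein-coding genes. Of the 48 control peaks 5 lay over a listed promoter of the member, 12 over another listed promoter and 5 otherwise inside the member. The others were 8 inside another gene and 18 between genes. MMP1, MMP2 and MMP9 have no promoter entry, so the shared peak over the lower-coordinate end of MMP9 counts as inside the member. Among the 13 knockout-only peaks, 1 lay over the member's own promoter (TIMP3), 4 elsewhere inside the member (2 in MMP2, 1 in MMP9 and 1 in MMP14), 1 over the promoter of another gene, 5 inside another gene and 2 between genes. Among the 4 control-only peaks, 1 lay inside the member (TIMP3), 2 inside another gene and 1 between genes. The one counted inside MMP3 spans the higher-coordinate end of that gene, which has no promoter entry. Of the 13 knockout-only peaks, 5 had a −log10 q of at least 5: those of TIMP3 in SYN3, the pair beside and inside MMP9, and the second one in MMP2. Of the 4 control-only peaks, 1 had: the peak between genes near MMP1. Of all peaks, shared or not, 31598 of 42552 in the knockout list and 26745 of 39797 in the control list reached this value. The share among all genotype-only peaks was not counted.

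**Figure D4:**
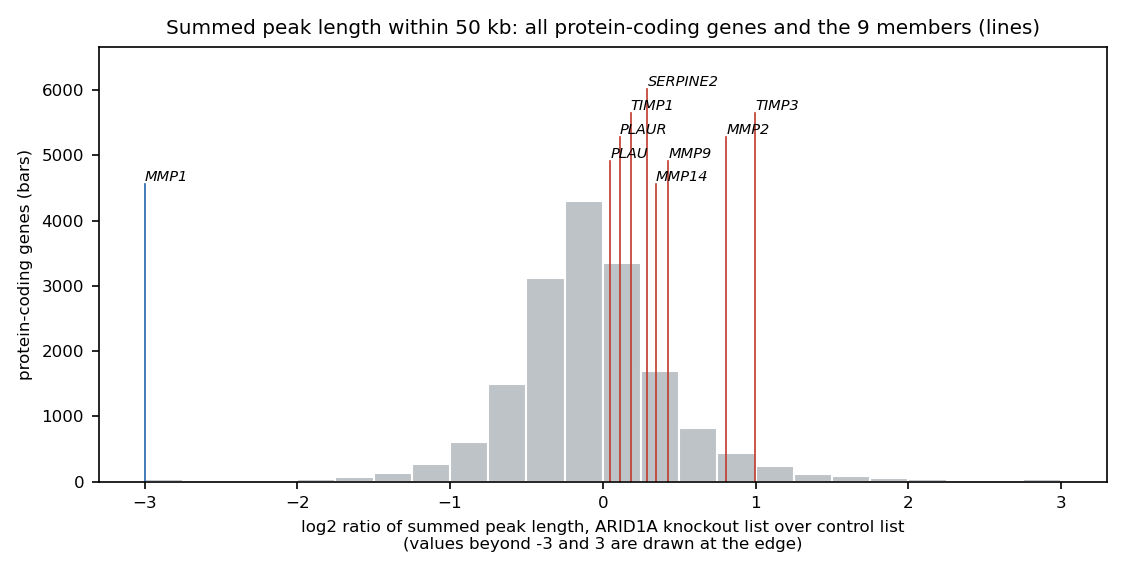
Log2 ratio of summed peak length within 50 kb, ARID1A knockout list over control list, with grey bars for the number of protein-coding genes with peaks in both lists and lines for the 9 members. MMP1, with a value of -3.48, is drawn at the left edge of the axis, and the other 8 members lie above 0, from PLAU at 0.05 upwards.

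Genes of the same proteolytic system outside the 9 members showed more peak length in the control list for 17 of 31 and in the knockout list for 12, with none in either list for PLG and MMP12. This split is close to that of the 17126 protein-coding genes with peaks in both lists, of which 40.7% had more in the knockout list. Each peak here went to the closest of these and the 9 members, which the values over all protein-coding genes did not require. The peaks of the MMP1 window went to MMP8, MMP10 and MMP3, so they are counted here as well as among the members. Of their peaks, 32 of 182 were knockout-only (17.6%) and 20 of 163 control-only (12.3%), against 22.4% of all knockout peaks and 18.0% of all control peaks. Knockout-only peaks lay near 17 genes and control-only peaks near 15, of which 7 had both kinds, against 43.2% of those 17126 genes with a knockout-only and 47.3% with a control-only peak in the window. Promoter peaks were in both lists for 12 of the 18 genes with a promoter entry, and in neither list for the other 6, against 62.0% of protein-coding genes with one in both.

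Knockout-only peaks with a −log10 q of at least 5 lay near SERPINB2, a urokinase inhibitor, near SERPINF2, a plasmin inhibitor, near ANXA2 and ENO1, whose products bind plasminogen, near TIMP2, an MMP inhibitor, near BSG, an inducer of MMPs, and inside LRP1, the endocytic receptor that clears protease-inhibitor complexes. Those not in LRP1 lay from 15.9 kb (ANXA2) to 48.7 kb (SERPINF2) away from the gene. The one in LRP1 was the highest of these knockout-only peaks (chromosome 12, 57151505 to 57153456, 1.95 kb, pileup 45.7, −log10 q 36.4), and the nearest control peak lay 1.75 kb away. Control-only peaks of that rank lay near MMP24 (2 peaks), inside RECK, a membrane-anchored MMP inhibitor gene, and nearest to MMP8, the neutrophil collagenase gene. The last is the control-only peak described at MMP1, since the MMP genes are neighbours on chromosome 11. In RECK the peak measured 2202 bp (chromosome 9, 36090604 to 36092805, pileup 28.1, −log10 q 11.8), and in MMP24 the stronger one measured 1.60 kb (chromosome 20, 35263088 to 35264688, pileup 29.6, −log10 q 16.1). The largest differences in summed length with more in the knockout list were at SERPINB2 (7.49 kb in knockout, 2.60 kb in control), MMP17 (19.2 kb in knockout, 15.6 kb in control), LRP1 (26.5 kb in knockout, 22.9 kb in control) and MMP16 (4.45 kb in knockout, 1.04 kb in control). With more in the control list, they were at MMP24 (32.2 kb in knockout, 39.7 kb in control), ENO1 (32.6 kb in knockout, 38.4 kb in control), MMP28 (5.07 kb in knockout, 9.45 kb in control) and MMP11 (13.8 kb in knockout, 18.0 kb in control).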

How the data were processed

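H3K27ac had been measured by ChIP-seq in 8 libraries. The submitters' processing notes list Bowtie2 2.3.5.1, MACS2 2.2.6 and the hg38 build. Options, read filters, library depth and whether replicates were pooled are not given in the sources used here. The deposited lists (1 per genotype, immunoprecipitate against input) hold, per the file headers, each peak's position, length and pileup (a coverage signal), its fold enrichment (a ratio), and its −log10 p-value and −log10 q-value. The authors made these values, and the −log10 p-value was not used. Coordinates are 1-based, as a comparison of length with start and end showed.

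The analysis was limited to chromosomes 1 to 22 and X, and 8 knockout and 6 control peaks on other sequences were left out. Peaks were classed in Python 3.11.15 with pandas 2.3.3 and numpy 2.4.6. The classing was tested on simulated intervals, and bedtools 2.31.1 gave the same counts on the real lists. Intervals are exact (Clopper-Pearson, scipy 1.17.1), and figures used matplotlib 3.10.9. Gene spans and promoters were from RefSeq GRCh38.p14. The members, the 31 further genes, the markers and the motifs were chosen with earlier results of these data known. Named peaks are each member's promoter peaks, its highest and longest peaks and every genotype-only peak. Of the further genes, those with a genotype-only peak at a −log10 q of at least 5 are named, and the 4 with the largest length difference in each direction. The alternatives changed the window, the overlap, the threshold and the unit counted.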

Additional observations from a re-analysis of the deposited data

How the results depend on the processing

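With 1 peak list per genotype, no replicate could be left out, and depth per library is unknown. No paired analysis was possible because no result comes from a test and no list carries a replicate number. Windows of 25 kb gave 28 shared peaks in each list, 8 knockout-only and 2 control-only peaks, 82.6 kb of knockout and 72.2 kb of control peak length, and more knockout length in 5 members. With 100 kb there were 74 shared knockout and 72 shared control peaks, 20 knockout-only and 8 control-only peaks, and 210 kb of knockout and 187 kb of control peak length. Over all alternatives run, the control-only share ran from 4.17% to 12.9% and the knockout-only share from 18.2% to 24.4%. These values lay within the intervals given above, but those intervals are wide and cover counting error, not dependence on processing. The 3 alternatives that kept only some peaks filtered both lists before classing. A shared peak whose partner was removed then counted as genotype-only, so their genotype-only peaks are partly other peaks than those described above. Counting peaks within 1 kb as shared left 2 control-only peaks. With a −log10 q of at least 5, which kept 31598 knockout and 26745 control peaks, lengths were 121 kb in knockout and 102 kb in control. More knockout length was then found in 8 members. This threshold gave 11 knockout-only peaks near members, whereas 5 of the 13 in the full lists reached it. Classed after filtering, 6 further genes had a control-only peak, against 15 in the full lists. Control-only peaks of the full lists that reached the threshold were those of MMP24, RECK and MMP8 alone. The upper 50% by fold gave 27 shared peaks in each list and 8 knockout-only peaks. Lengths were 108 kb in knockout and 91.0 kb in control, with more knockout length in 7 members. Of the 13 knockout-only peaks of the full lists, only a TIMP3 peak lay above the median fold. With the 30000 peaks of highest −log10 q in each list, an alternative added after seeing the data, 8 peaks were knockout-only. Lengths were then 121 kb in knockout and 104 kb in control, with more knockout length in 8 members. The gap between the members' control-only share and that of all control peaks depended on the threshold: it was 7.69% against 16.6% under this alternative, 8.11% against 10.2% with a −log10 q of at least 5, and 12.9% against 13.1% in the upper 50% by fold. The knockout-only share was 18.2% against 16.2%, 24.4% against 23.2%, and 22.9% against 18.1% under the same 3 alternatives. The number of members with a promoter peak in both lists was 5 in every alternative run on it. That count does not register the TIMP3 promoter peak of the knockout list alone, which had a −log10 q of 2.88. This TIMP3 peak is lost with a −log10 q of at least 5. It is also lost among the 30000 peaks, whose lowest knockout value was 5.90.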
